A study of Chlorocebus aethiops with 10 samples.

Results

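The genes described here are 10 components of macroautophagy, the route by which a cell encloses its own material in a double membrane and delivers it to lysosomes. They were chosen by name (ATG5, ATG7, ATG12, ATG3, ULK1, BECN1, MAP1LC3B, SQSTM1, FOXO3 and TFEB) and were compared between livers of monkeys given an inhibitor of 2 microRNAs, miR-33a and miR-33b, and livers of monkeys given vehicle. All 10 were found in the probe table, with 1 array feature each, among 16583 named genes. Both groups were adult female African green monkeys (Chlorocebus aethiops) that were moderately obese and ate a high-fat diet over 12 weeks. The treated group (n = 5) received antimiR-33a/b, an oligonucleotide with locked nucleic acid bases, subcutaneously, first 20 mg/kg (day 0) and then 5 mg/kg weekly. Vehicle animals (n = 5) received 0.9% NaCl. Liver biopsies were taken on day 57 and each was hybridised to 1 one-colour array.

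Autophagy starts when the ULK1 kinase complex is released from restraint by mTORC1 and, under energy shortage, is activated by AMPK. The class III phosphatidylinositol 3-kinase complex that contains beclin 1 (BECN1) then marks the growing membrane, and a pair of ubiquitin-like conjugation steps attach ATG12 to ATG5 and LC3 (MAP1LC3B) to lipid. ATG7 is the activating enzyme of both steps, ATG3 is the conjugating enzyme for LC3, and the ATG12-ATG5 pair joined to ATG16L1 directs LC3 to the membrane. SQSTM1 (p62) carries ubiquitin-tagged cargo to LC3, and the transcription factors FOXO3 and TFEB switch on autophagy and lysosome genes. In liver the pathway also delivers lipid droplets for breakdown. In mouse and human macrophages, ATG5, ATG12, MAP1LC3B, FOXO3, TFEB, LAMP1 and PRKAA1 have been reported as genes repressed by miR-33.

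Of the 10 genes, ATG3 rose 1.33-fold in treated livers. ULK1 fell to 0.752-fold and TFEB fell to 0.759-fold. The other 7 genes had positive differences that did not pass the test. A gene was called when its adjusted p in limma was under 0.05 after Benjamini-Hochberg adjustment over all 16583 genes. By that rule 3 of 10 were called, against 20.5% of all genes. Among the 10, 1 rose, against 13.7% of all genes, and 2 fell, against 6.8% of all genes. The deposited values are centred per feature and are taken here as log2, so each value is a level relative to the same gene on other arrays and levels cannot be compared between genes. The median difference of the 10 genes was 0.095, against 0.039 over all genes, and 8 of the 10 differences were positive, against 59.2% of all genes.

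ULK1 (NCBI gene 8408) encodes the kinase that starts autophagosome formation. Its centred values were -0.15, 0.075, -0.19, -0.22 and -0.21 in antimiR-33a/b animals 1 to 5, against 0.29, 0.19, 0.31, 0.32 and 0.25 in vehicle animals 1 to 5. Treated animal 2 stood above the other 4 treated animals, yet all 5 treated values lay below the lowest vehicle value. The group means were -0.14 ± 0.12 in treated animals and 0.27 ± 0.055 in vehicle animals (SD, n = 5 each). They differed by -0.41 log2 units (SE 0.066, 95% confidence interval -0.55 to -0.27), with a limma adjusted p of 0.0024. A two-sided exact permutation test with all 252 assignments of animals gave p = 0.0079, the smallest such a design can give.

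TFEB (NCBI gene 7942), the transcription factor that drives lysosome and autophagy genes, showed the same separation. Its values were -0.10, -0.0060, -0.19, -0.21 and -0.063 in antimiR-33a/b animals, against 0.26, 0.35, 0.31, 0.31 and 0.19 in vehicle animals. No treated value was above 0 and no vehicle value was below 0. The means were -0.11 ± 0.085 in treated animals and 0.28 ± 0.063 in vehicle animals (SD, n = 5 each), a difference of -0.40 (SE 0.060, 95% confidence interval -0.53 to -0.27, limma adjusted p = 0.0019). Its p ranked 118 among all genes, while ULK1 ranked 189 and ATG3 ranked 436.

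ATG3 (NCBI gene 64422), the enzyme that passes LC3 to its lipid, was the 1 gene of the 10 that rose. Values were 0.14, -0.052, 0.33, 0.0020 and -0.0020 in antimiR-33a/b animals, against -0.38, -0.28, -0.39, -0.21 and -0.36 in vehicle animals. Treated animals 1 and 3 were highest, and the groups did not overlap. The means were 0.083 ± 0.15 in treated animals and -0.33 ± 0.079 in vehicle animals (SD, n = 5 each), a difference of 0.41 (SE 0.076, 95% confidence interval 0.24 to 0.57, limma adjusted p = 0.0046). These 3 genes were the members whose groups did not overlap, against 13.3% of all genes (8.79% higher and 4.52% lower in treated animals).

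**Figure D1:**
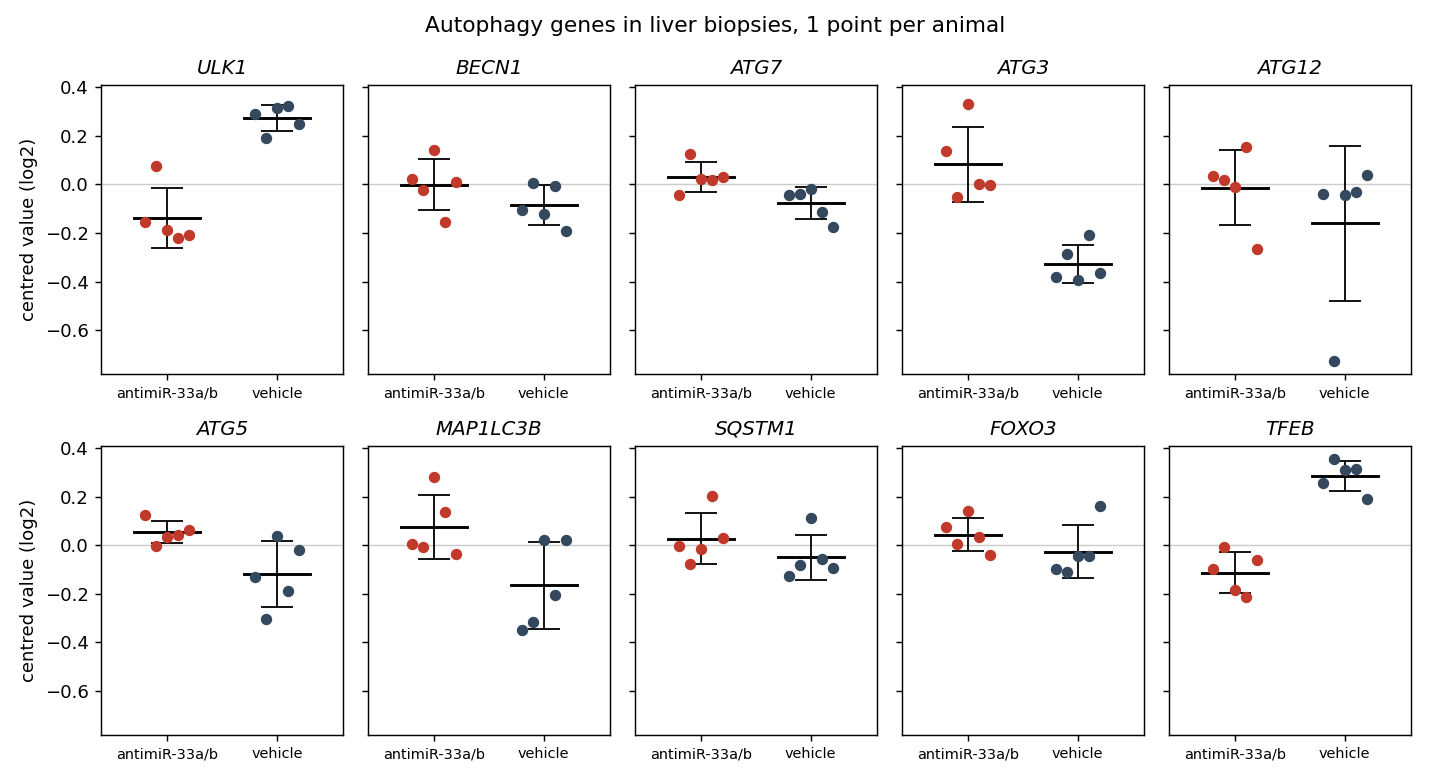
Centred log2 values (y axis) of the 10 autophagy genes in antimiR-33a/b animals (red, left) and vehicle animals (dark, right), 1 point per animal, with lines for the mean and bars for the SD of 5 animals. The groups separate for ULK1, ATG3 and TFEB and overlap for the other 7 genes, and 1 vehicle value of ATG12 lies at -0.73.

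Among the remaining conjugation genes, ATG7 (NCBI gene 10533), the activating enzyme, had the smallest spread of the 10 genes within groups (SD 0.063). Its values were -0.043, 0.13, 0.023, 0.018 and 0.030 in antimiR-33a/b animals, against -0.043, -0.037, -0.018, -0.11 and -0.18 in vehicle animals. Treated values exceeded the highest vehicle value in 4 of 5 animals. The difference was 0.11 (95% confidence interval -0.013 to 0.23) and did not pass (limma adjusted p = 0.185).

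ATG5 (NCBI gene 9474), the acceptor of ATG12, differed by 0.17 (SE 0.068, 95% confidence interval 0.026 to 0.32, limma adjusted p = 0.0875). Values were 0.12, -0.0014, 0.035, 0.043 and 0.064 in antimiR-33a/b animals, against -0.13, -0.30, 0.039, -0.19 and -0.019 in vehicle animals. The treated animals lay close together (SD 0.046, against 0.14 in vehicle animals), and 3 of 5 lay above the vehicle range.

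ATG12 (NCBI gene 9140), the ubiquitin-like partner of ATG5, had values of 0.035, 0.019, -0.0098, 0.16 and -0.27 in antimiR-33a/b animals, against -0.038, -0.73, -0.045, -0.030 and 0.037 in vehicle animals. Vehicle animal 2 stood far below the rest. The difference was 0.15 (95% confidence interval -0.14 to 0.43, limma adjusted p = 0.447), and without vehicle animal 2 it was 0.0054.

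MAP1LC3B (NCBI gene 81631) encodes the LC3B protein that coats the autophagosome; in the human genome a near-identical copy, MAP1LC3B2, exists, and whether its probes tell the copies apart is unknown. Values were 0.0062, -0.0062, 0.28, 0.13 and -0.037 in antimiR-33a/b animals, against -0.35, -0.31, 0.021, -0.20 and 0.020 in vehicle animals. Vehicle animals 3 and 5 lay within the treated range and the other 3 below it. The difference of 0.24 (SE 0.090, 95% confidence interval 0.047 to 0.43) missed the threshold with a limma adjusted p of 0.0739, and without vehicle animal 5 it was 0.29 with an adjusted p of 0.0445. Together with ATG5, ATG3, ULK1 and TFEB it made 5 members with an unadjusted limma p under 0.05, against 35.6% of all genes.

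BECN1 (NCBI gene 8678), a subunit of the lipid kinase complex, had values of 0.020, -0.022, 0.14, -0.15 and 0.0080 in antimiR-33a/b animals, against -0.11, 0.0064, -0.12, -0.0064 and -0.19 in vehicle animals. The groups overlapped and the difference was 0.082 (95% confidence interval -0.060 to 0.22, limma adjusted p = 0.391). SQSTM1 (NCBI gene 8878), the cargo receptor, had values of -0.0015, -0.077, -0.018, 0.20 and 0.028 in antimiR-33a/b animals, against -0.13, -0.082, 0.11, -0.056 and -0.094 in vehicle animals. Here 1 treated animal lay above the vehicle range, with a difference of 0.077 (95% confidence interval -0.069 to 0.22, limma adjusted p = 0.44).

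FOXO3 (NCBI gene 2309), the other transcription factor among the 10, had values of 0.074, 0.0064, 0.14, 0.035 and -0.041 in antimiR-33a/b animals, against -0.099, -0.11, -0.046, -0.044 and 0.16 in vehicle animals. Vehicle animal 5 was the highest of all 10 animals and the other 4 vehicle animals lay below every treated one. The difference was 0.070 (95% confidence interval -0.069 to 0.21, limma adjusted p = 0.46). The intervals of BECN1, SQSTM1 and FOXO3 ended at 0.22, 0.22 and 0.21, below the size of the differences of the 3 called genes. Those of ATG7 and ATG5 also ended below it, at 0.23 and 0.32. The intervals of ATG12 and MAP1LC3B both ended at 0.43, above the size of all 3 called differences.

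The arrays also differed in general. Array medians ran from -0.054 to 0.061, and none of the 45 pairs of arrays was identical. A contrast was formed per array as the median of 386 genes of 7 families that most cells express (ribosomal, proteasome, respiratory chain, translation, splicing and chaperonin genes) minus the median of 513 genes of 6 families that liver does not normally express (such as olfactory receptors). It was 0.23, -0.089, 0.20, 0.035 and -0.0042 in antimiR-33a/b animals, against -0.28, -0.17, -0.27, -0.021 and -0.31 in vehicle animals. The contrast was thus higher in treated animals by 0.29 (exact two-sided permutation p = 0.0159), with vehicle animal 4 inside the treated range. It was chosen with earlier results of these data known, so this p is a description and not an independent test. Hepatocyte markers moved too: 6 of 11 rose. For comparison with this and the other marker counts, 13.7% of all genes rose and 6.8% fell. The mean of the hepatocyte list ran from -0.063 to 0.13 in treated animals and from -0.36 to -0.027 in vehicle animals. Endothelial and stellate cell markers rose in 3 of 10 cases each, and the ranges of both list means overlapped between groups. T and NK cell markers fell in 3 of 11 cases and rose in 1, and B and plasma cell markers rose in 2 of 6. Limma called 0 of 11 markers of macrophages, 0 of 6 of red cells and neutrophils and 0 of 6 of cholangiocytes. In these lists 1, 2 and 1 markers had an unadjusted limma p under 0.05, against 35.6% of all genes. The red cell and neutrophil list had the largest median difference of the 8 marker lists, 0.43, and its mean was 0.21, 1.04, 0.036, -0.043 and 0.63 in antimiR-33a/b animals, against -0.54, 0.083, -0.55, 0.29 and 0.17 in vehicle animals. Treated animals 2 and 5 were highest and vehicle animals 1 and 3 lowest, and the groups overlapped. The part of these markers in the results was not tested. In a biopsy, fewer cells of a type and less RNA per cell cannot be told apart, and centred values do not show whether a marker is present or absent.

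With this family contrast as a covariate in limma, 3.32% of all genes were called and TFEB was the 1 member among them, with a difference of -0.38 (SE 0.088, adjusted p = 0.0452), nearly the size found without the covariate. ULK1 differed by -0.35 (SE 0.098, 95% confidence interval -0.56 to -0.13) and missed the threshold with an adjusted p of 0.0634. ATG3 differed by 0.18 (SE 0.082, 95% confidence interval -0.0044 to 0.36, adjusted p = 0.187), less than 0.41 without the covariate. The contrast itself was higher in treated animals by 0.29. In this fit a difference over the whole array and an effect of treatment therefore cannot be told apart. ATG5 (0.22), ATG7 (0.17), ATG12 (0.18) and MAP1LC3B (0.23) kept positive differences that did not pass, and BECN1 differed by -0.053.

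**Figure D2:**
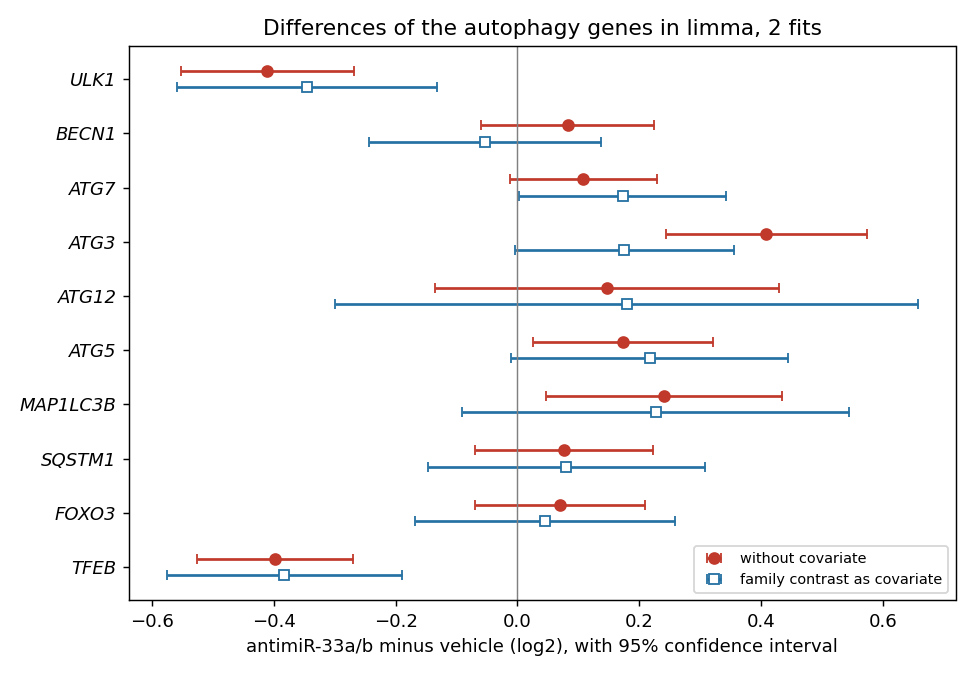
Difference between antimiR-33a/b and vehicle animals (x axis, log2) with its 95% confidence interval for each of the 10 genes in limma, without a covariate (red circles) and with the family contrast as covariate (blue squares). Intervals lie below 0 in both fits for ULK1 and TFEB, while that of ATG3 reaches 0 with the covariate.

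**Figure D3:**
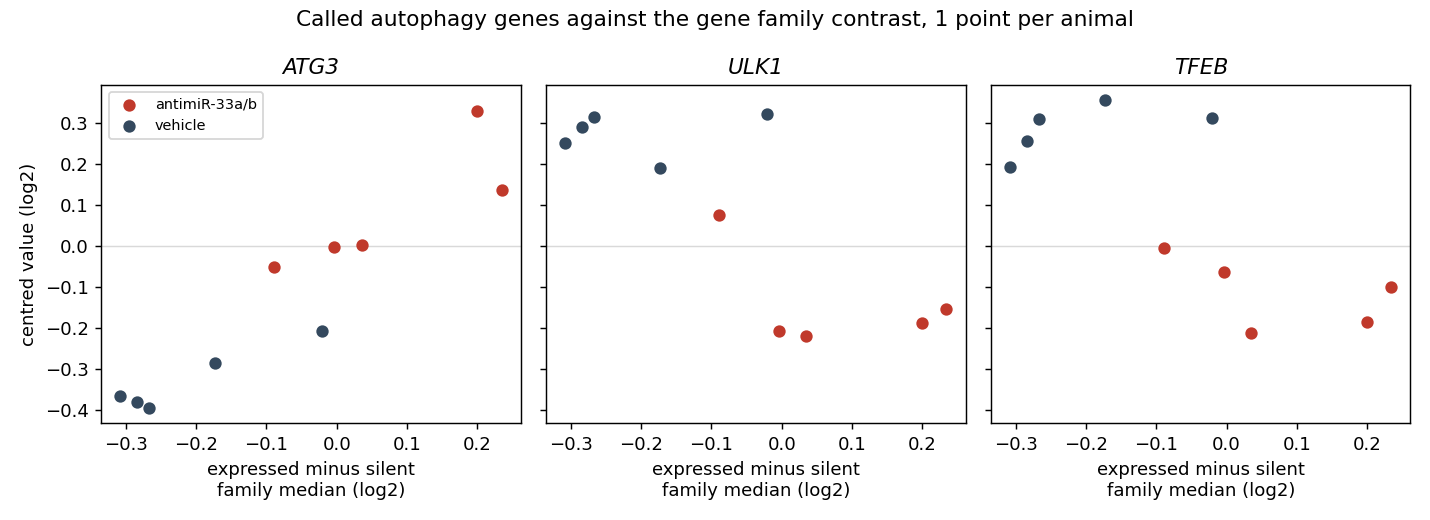
Centred log2 value (y axis) of ATG3, ULK1 and TFEB against the difference between the medians of expressed and silent gene families (x axis, log2), 1 point per animal, antimiR-33a/b in red and vehicle in dark. For all 3 genes the treated and vehicle animals do not overlap on the y axis, and on the x axis vehicle animal 4 (contrast -0.021) lies within the treated range. For ATG3, treated animals 1 and 3 and vehicle animal 4 are highest in their groups on both axes. For ULK1 and TFEB, treated animal 2 is highest of its group on the y axis and lowest on the x axis.

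The 10 genes did not vary as a block among animals. After each group's mean was subtracted, Pearson's r over 10 animals had a median of -0.095 across the 45 pairs of genes and was above 0 for 20 of them. It was highest between ATG3 and BECN1 (0.77), between MAP1LC3B and FOXO3 (0.76) and between ATG5 and ATG12 (0.63). It was lowest between ATG7 and FOXO3 (-0.68) and between the transcription factors FOXO3 and TFEB (-0.66). Single animals weigh on these values. Vehicle animal 5 had the highest FOXO3 (0.16) and the lowest ATG7 (-0.18) and TFEB (0.19) of its group. Vehicle animal 2 had the lowest ATG12 (-0.73) and ATG5 (-0.30) of its group. Correlations without these animals were not computed. ULK1 and TFEB had r = 0.51. These correlations describe 10 arrays that share their preparation and the array-wide differences given above.

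By the same measure the genes most like TFEB were NUP85 (0.93), ATP6V0A1 (0.90), a subunit of the lysosomal proton pump, and CHMP4B (0.88). Those most like ULK1 were KCTD2 (0.90), MED9 (0.90) and PLRG1 (0.87), and those most like ATG3 were BTF3 (0.98), MEA1 (0.94) and PWP1 (0.94). The 3 genes most like ATG3 also rose (differences of 0.33, 0.38 and 0.65, limma adjusted p = 0.0048, 0.0067 and 0.0012), where 13.7% of all genes rose. Whether these 3 genes and ATG3 share the array-wide contrast was not tested. Of those most like TFEB, NUP85 rose by 0.38 (adjusted p = 0.0034) while TFEB fell, ATP6V0A1 differed by -0.040 and CHMP4B by 0.20, both without passing. For the 3 genes most like ULK1, differences were -0.00093, 0.054 and 0.21, and none passed. The likeness is the highest among all genes by selection.

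The other 92 measured genes of the pathway, from 6 lists by role, were called about as often as genes in general: 14 rose, 5 fell and 73 did not pass, which is 20.7%, against 20.5% of all genes. Their median difference was 0.10, against 0.039 over all genes. The call count was 10, 8 and 12 without vehicle animals 1, 2 and 3, and 9 without either treated animal 1 or treated animal 3. In the fit with the family covariate 2 of the 92 were called, against 3.32% of all genes, and neither was among the 19. These were ATG14 (0.44, limma adjusted p = 0.0411) and LAMP1 (-0.49, adjusted p = 0.0493), named after their values were seen. The median of the 92 was 0.047 in that fit, below the 0.089 over all genes.

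In initiation and nutrient sensing, 2 of 18 genes rose, 2 fell and 14 did not pass (22.2% called, against 20.5% of all genes). RPTOR, the scaffold of mTORC1 that binds ULK1, fell by 0.30 (SE 0.061, limma adjusted p = 0.0072), and the groups did not overlap. PRKAB1, a regulatory subunit of AMPK, fell by 0.21 (adjusted p = 0.0349). RB1CC1 (FIP200), the scaffold of the ULK1 complex, rose by 0.30 (adjusted p = 0.0361), opposite in sign to ULK1. PRKAA1, a catalytic subunit of AMPK, averaged 0.28 ± 0.38 in treated animals and -0.18 ± 0.14 in vehicle animals (SD, n = 5 each) and rose by 0.46 (adjusted p = 0.0433). Calls for PRKAB1, RB1CC1 and PRKAA1 were lost in 8, 6 and 6 of the 10 fits without 1 animal (adjusted p up to 0.0837, 0.0893 and 0.0981).

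In the lipid kinase complex and membrane nucleation, 1 of 19 genes rose and 1 fell (10.5% called, against 20.5% of all genes). PIK3C3, the catalytic subunit that works with beclin 1, rose by 0.36 (SE 0.073, limma adjusted p = 0.0063), averaging 0.11 ± 0.084 in treated animals and -0.26 ± 0.14 in vehicle animals (SD, n = 5 each). ATG9A, the membrane protein that seeds the autophagosome, fell by 0.36 (SE 0.072, adjusted p = 0.0062). The groups did not overlap for either gene.

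In conjugation beyond the 10 genes, 2 of 13 rose and 1 fell (23.1% called, against 20.5% of all genes). ATG16L1, which joins ATG12-ATG5, rose by 0.25 (SE 0.058, limma adjusted p = 0.0124), and all its treated values lay above all vehicle values. ATG4C, a protease that trims LC3-like proteins, rose by 0.31 (adjusted p = 0.0161), while its relative ATG4B fell by 0.22 (adjusted p = 0.0439). The ATG4B call was lost in 9 of the 10 fits without 1 animal (adjusted p up to 0.111), and that of ATG4C after quantile normalization (adjusted p = 0.0526).

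Cargo receptors had the highest list median, 0.24, with 6 of 15 called (40%, against 20.5% of all genes). All 6 were higher in treated animals, where 13.7% of all genes rose, and 0 fell, against 6.8% of all genes. NBR1, a receptor for ubiquitin-tagged cargo like SQSTM1, averaged 0.19 ± 0.19 in treated animals and -0.35 ± 0.14 in vehicle animals (SD, n = 5 each), a rise of 0.54 (SE 0.093, limma adjusted p = 0.0035). TOLLIP, an adaptor that binds ubiquitin, rose by 0.26 (adjusted p = 0.0093). TAX1BP1 (0.46, adjusted p = 0.0339), the glycogen receptor STBD1 (0.46, adjusted p = 0.0369) and the mitophagy receptors BNIP3 (0.32, adjusted p = 0.0263) and BNIP3L (0.27, adjusted p = 0.0312) rose as well. These 4 calls were lost in 5 or 6 of the 10 fits without 1 animal, and those of TAX1BP1, STBD1 and BNIP3 also after quantile normalization (adjusted p = 0.0979, 0.0769 and 0.103). In the fit with the family covariate 0 of 15 were called in limma, against 3.32% of all genes. There 4 of 15 had an unadjusted p under 0.05, against 4657 of 16583 genes. The cargo receptor median in that fit was 0.11, against 0.089 over all genes.

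For fusion with the lysosome, 2 of 16 genes rose and 0 fell (12.5% called, against 20.5% of all genes). LAMP2, a lysosome membrane protein needed for autophagosome clearance, averaged 0.081 ± 0.11 in treated animals and -0.41 ± 0.16 in vehicle animals (SD, n = 5 each), a rise of 0.49 (SE 0.082, limma adjusted p = 0.0029). VAMP8, a SNARE of the fusion step, rose by 0.37 (adjusted p = 0.0351) and lost its call in 7 of the 10 fits without 1 animal (adjusted p up to 0.0886). Among 11 other transcriptional regulators 18.2% were called, against 20.5% of all genes. FOXO4 rose by 0.18 (limma adjusted p = 0.0388) and SREBF2, the host gene of miR-33a, fell by 0.20 (adjusted p = 0.0380). Both groups' values were separate for each, and calls were lost in 8 and 7 of the 10 fits without 1 animal (adjusted p up to 0.0854 and 0.0950).

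**Figure D4:**
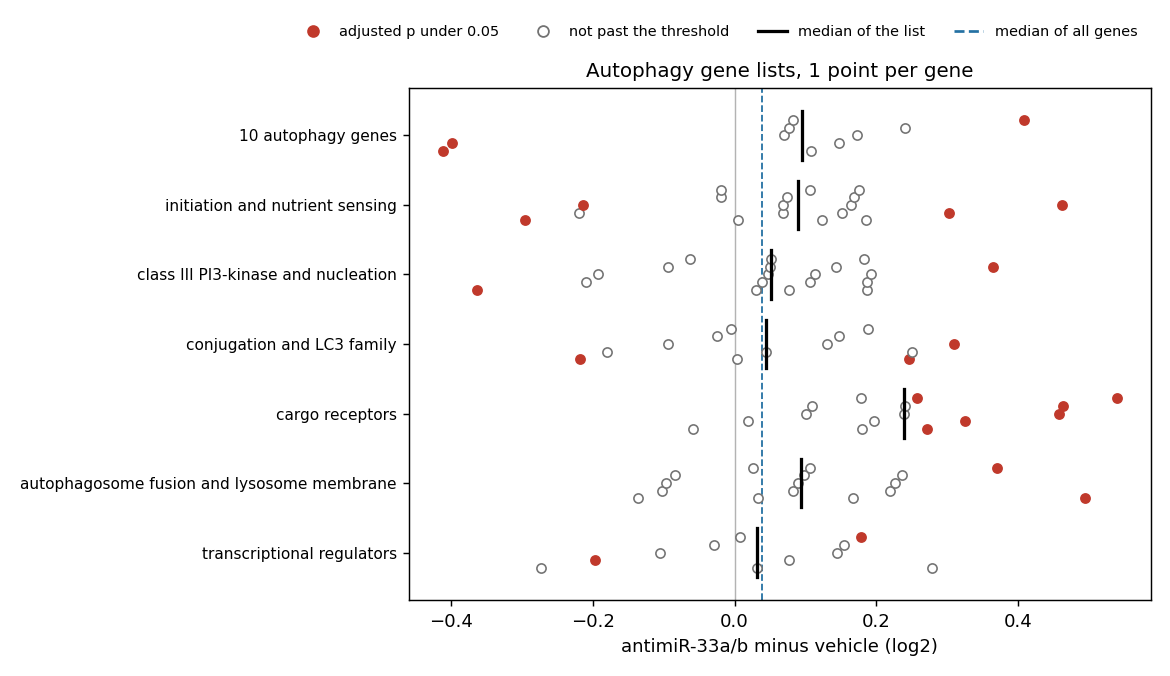
Difference between antimiR-33a/b and vehicle animals (x axis, log2) for the 10 autophagy genes and 6 lists of other autophagy genes (rows), 1 point per gene, filled red where the limma adjusted p is under 0.05. Black bars mark list medians and the dashed line the median of all genes (0.039); the cargo receptor median of 0.24 lies furthest to the right.

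Of the 7 autophagy genes reported as repressed by miR-33, 1 rose (PRKAA1), 1 fell (TFEB) and 5 did not pass, with a median difference of 0.15, against 0.039 over all genes. Without vehicle animal 2 the median was 0.050. The number called was 1 without any 1 of vehicle animals 1, 2 and 3 and treated animals 1 and 2. It was also 1 after quantile normalization, after a shift of the arrays to equal medians and with trend and robust settings. Without vehicle animal 5 it was 2, TFEB and MAP1LC3B (limma adjusted p = 0.0032 and 0.0445). Of all genes, 1925 to 4117 were called in the fits without 1 animal, against 3399 with all animals. After quantile normalization, the shift to equal medians and with trend and robust settings, 3288, 3887 and 3345 of all genes were called. Of the 7 differences, 5 were positive, and those of TFEB and LAMP1 (-0.084, limma adjusted p = 0.639) were negative. ATG5, ATG12, MAP1LC3B and FOXO3 differed by 0.17, 0.15, 0.24 and 0.070, none past the threshold. Called genes made up 28.6% of these 7, against 20.5% of all genes. With the family covariate 2 of the 7 were called, against 3.32% of all genes. Both were lower in treated animals, TFEB (-0.38, limma adjusted p = 0.0452) and LAMP1 (-0.49, adjusted p = 0.0493). PRKAA1 differed by 0.49 in that fit and did not pass (adjusted p = 0.215), and the median of the 7 was 0.18, against 0.089 over all genes.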

How the data were processed

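The authors deposited 1 value per feature and array (45033 features, 10 arrays), taken here as log2 and centred per feature. Per the labels, 1 µg of total RNA was made into double-stranded cDNA and labelled with Cy3. The log base, scanner, normalization and centring were not given in the sources used here. A probe table gave 18188 features 1 gene symbol (26845 had none), those of human genes, and values were averaged per symbol into 16583 genes. Precision is limited by 5 arrays per group; signal over background is unknown.

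Differences (antimiR-33a/b minus vehicle) over all genes were computed with limma 3.58.1 in R 4.3.3 (lmFit, eBayes, no covariate), adjusted by Benjamini-Hochberg, threshold 0.05, after a test on simulated data. Exact permutation tests used 252 assignments. The 10 genes, the lists, the family contrast and the rules were chosen with earlier results of these data known. Named are the 10 genes, called genes of each list plus up to 2 with the smallest p, and the 3 genes most correlated with each of the 3 members of smallest p. Alternatives were quantile normalization, a shift to equal array medians, separate features, trend and robust settings, array weights, permutation, the family covariate and leaving out each animal.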

Additional observations from a re-analysis of the deposited data

Results flagged for a closer look

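In groups of 5, the highest or lowest animal was compared with its group by the gap to its nearest neighbour over the group's range (limit 0.71, which chance passes in about 1 of 20 groups). Of 58 groups of values, for 29 genes, 4 passed. ATG12 in vehicle animal 2 was -0.73, against -0.045 to 0.037 in the other 4 vehicle animals. ULK1 in antimiR-33a/b animal 2 was 0.075, against -0.22 to -0.15 in the other 4 treated animals. FOXO3 in vehicle animal 5 was 0.16, against -0.11 to -0.044 in the other 4. ATG16L1 in antimiR-33a/b animal 5 was 0.21, against 0.055 to 0.096 in the other 4.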

How the results depend on the processing

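Of 170 recomputed differences of the 10 genes, 163 kept their direction and their side of the threshold. Permutation, trend and robust settings and, with 1 feature per gene, separate features return the same differences by construction. In these settings only the side of the threshold could change. With the family contrast as a covariate ATG3 (0.18) and ULK1 (-0.35) missed the threshold and BECN1 turned to -0.053. That fit called 1 of the 10 genes, 2 of the other 92 autophagy genes and 551 of all genes. The median of the 92 was then 0.047, against 0.089 over all genes. In the exact permutation test 0 genes were called, since the smallest adjusted p it gave to any gene was 0.0596; ATG3 (0.41), ULK1 (-0.41) and TFEB (-0.40) had that value, and 5 of the 10 genes, 34 of the 92 and 5454 of all genes had an unadjusted p under 0.05. With array weights 29 of the 92 and 4355 of all genes were called, against 19 and 3399 in the main fit. After quantile normalization the median of the 92 was 0.072, and the median over all genes in that setting is not given here. Without single animals, ATG3 differed by 0.35 to 0.44, ULK1 by -0.46 to -0.39 and TFEB by -0.42 to -0.37, all called in 10 of 10 fits, and MAP1LC3B by 0.19 to 0.29, called in 1 of 10 (without vehicle animal 5). The called genes then numbered 3 to 4 among the 10, 8 to 21 among the 92 and 1925 to 4117 of all genes (lowest without vehicle animal 1). Of the 19 called among the 92, 8 passed in all 10 such fits and 0 with the covariate in limma (10 at an unadjusted p under 0.05), and 7 were lost after quantile normalization. Single lists moved in 65 of 231 recomputed values; their causes, and those of the changes above, were not tested. No paired analysis was possible because nothing in the labels pairs an animal of one group with one of the other.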
